A study of Mus musculus with 30 samples.

Results

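Homologous recombination and the Fanconi anaemia pathway were followed through 39 mouse genes that signal double-strand breaks, exchange DNA strands or clear crosslinks between strands. They were chosen by name, with earlier results of these data known. A gene was read through the probe sets whose platform annotation gave its symbol and no other, and 37 of the 39 were measured, out of 19937 genes measured in all. Xrcc2 and Rbbp8 were not analysed here. All 37 measured members passed the filter on dim genes in both experiments, and every count below is over these 37. Of them, Chek1, Clspn, Brca1, Palb2, Brip1, Rad54b, Fancd2, Blm and Gen1 lay below the array median on all 3 naive arrays and passed through brighter groups, and differences from such dim levels are compressed on these arrays.

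The series profiled sorted B cells of mesenteric lymph nodes on Affymetrix arrays, from CeGFP BALB/c mice on day 10 of infection with the worm Nippostrongylus brasiliensis. These mice carry a knock-in cassette of an internal ribosome entry site with GFP behind the coding part of membrane IgE, so GFP marks IgE cells and also IgG1 cells that rearranged the epsilon locus on the chromosome they do not use. All groups, the naive cells included, came from infected knock-in mice, and no label or protocol states the age of the mice. Each array is a pool of 3 mice. The labels do not say what arrays of the same number in different groups share, and the main fits took all arrays as independent. The first experiment held 18 arrays. They were IgE germinal centre (GC) cells (3), GFP+ IgG1 GC cells (3), GFP- IgG1 GC cells (3), IgE plasma cells (PC, 4), GFP+ IgG1 PC (2) and naive B cells (3). The sort took GC cells by B220 and CD95 without CD138, PC by CD95 together with CD138, and naive cells by B220 alone, lacking CD95, CD138, IgG1 and IgE. The second experiment held 12 arrays of IgG1 GC cells, split into dark zone (DZ; CXCR4 high, CD86 low) and light zone (LZ; CXCR4 low, CD86 high) cells, each GFP+ or GFP-, with 3 arrays a group. P-values rest on the spread between such pools within groups, taken as 1 estimate per gene over all groups of an experiment. That spread differed between groups. For Rmi1 the standard deviation was 1.31 on naive arrays and 0.13 on IgE GC arrays.

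A double-strand break is bound by the MRE11-RAD50-NBN complex, which activates the kinase ATM, while ATR and its partner ATRIP respond to single-stranded DNA at stalled replication forks. BRCA1, PALB2 and BRCA2 then prepare the broken end to invade the sister duplex, and helicases and nucleases separate the joined molecules afterwards. The Fanconi core complex attaches ubiquitin to FANCD2 and FANCI at crosslinks and stalled forks, and USP1 removes it. Sister chromatids exist in S and G2 phase, so the pathway works mainly in dividing cells. GC B cells divide fast and carry breaks from the enzyme that drives antibody mutation and class switching.

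Promoter windows were read because many members moved together, and because the E2F transcription factors are known to drive many S phase genes through a short word beside the start site. RefSeq promoter windows (GRCm38.p6, 250 bases before to 50 after a transcript start) were found for 32 of the 37 members. The E2F words searched were TTTCCCGC, TTTGGCGC, TTTCGCGC and TTTGCCGC on both strands, which share letters and may overlap one another. They occurred in the windows of 9 of 32 members (28.1%), of 14 of 31 DNA replication genes (45.2%) and of 704 of 27025 genes with a window (2.605%). The 27025 genes were not limited to those measured or tested on the arrays, whereas the members were. Sequences are given for 4 members that rose in GC cells (Clspn, Bard1, Chek2, Topbp1) and for both members with the word that did not pass the test (Fancg, Rmi1). Each is 30 bases, 5′ to 3′ along the transcript, with the E2F word in capitals.
Clspn: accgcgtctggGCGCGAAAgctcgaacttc
Bard1: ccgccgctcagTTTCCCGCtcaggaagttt
Chek2: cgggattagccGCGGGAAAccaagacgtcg
Topbp1: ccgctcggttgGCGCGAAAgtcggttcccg
Fancg: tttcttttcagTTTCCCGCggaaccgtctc
Rmi1: ccccgagggagTTTGGCGCgattggaggag

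These stretches lie at chr4:126556990-126557019 (Clspn, plus strand), chr1:71103163-71103192 (Bard1, minus strand), chr5:110839820-110839849 (Chek2, plus strand), chr9:103305187-103305216 (Topbp1, plus strand), chr4:43010335-43010364 (Fancg, minus strand) and chr13:58402612-58402641 (Rmi1, plus strand). Relative to the start site the word began at -209 in Bard1, -152 in Chek2, -129 in Topbp1, -52 in Fancg, 21 in Clspn and 26 in Rmi1. Of the 9 members with the word, 7 rose in IgE GC cells against naive cells (median log2 difference 1.53), and of the 23 without it, 15 rose (median 1.13). Gen1 and Brip1, which had the largest fitted differences of all members there, had no E2F word in these windows. The box CCAAT was found in 19 of 32 members (59.4%) and in 41.1% of all genes with a window. The words TTTGAA or TTCGAA, known from genes of G2 and mitosis, were found in 4 of 32 members (12.5%) and in 21.7% of all genes with a window. A match is a description of letters, and binding was not measured.

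Array medians lay between 5.28 and 5.47 in the first experiment and 5.29 and 5.37 in the second, all values being log2 signals. Within their groups, naive replicate 1 and GFP+ IgG1 GC replicate 3 stood apart, correlating on average at 0.892 and 0.949 with the other arrays. Naive replicates 2 and 3 were also low, at 0.909 and 0.910, as were both IgG1 PC arrays, at 0.934. The naive arrays had the highest medians of that experiment, 5.38 to 5.47, so the naive baseline was loose as a whole. Where a comparison with calls held either array that stood apart, the count without both is given beside the main one. Markers separated the groups as labelled. The marker lists held Fas (CD95) and Sdc1 (CD138), which the sort used, so that part of this separation was set by the sort. GC markers averaged 10.10 to 10.26 in GC groups against 5.87 in naive cells, 7.13 in IgE PC and 5.96 in IgG1 PC, and PC markers averaged 10.09 and 9.40 in IgE and IgG1 PC against 5.88 to 6.43 elsewhere in that experiment. The 3 measured cycling markers (Mki67, Top2a, Ccna2) averaged 5.11 in naive cells, 10.52 to 10.62 in the GC groups, and 10.05 and 10.11 in IgE and IgG1 PC. The 7 measured macrophage and dendritic cell markers together averaged 5.10 to 5.51 on the naive arrays and 4.30 to 4.78 on the GC arrays, with Tyrobp at 8.43 ± 0.28 in naive cells and 5.42 ± 0.10 in GFP+ IgG1 GC cells (SD, n = 3 each), and 2 of the 3 that were tested fell in each GC group. The 8 T cell markers averaged 5.47 to 5.96 on naive arrays, 5.05 to 5.72 on GC arrays and 5.99 to 6.24 on IgG1 PC arrays. Of 7 tested, 1, 3 and 3 fell in IgE, GFP+ IgG1 and GFP- IgG1 GC cells. The 4 natural killer cell markers averaged 3.94 to 4.70 on naive and 3.54 to 3.82 on GC arrays, and the 5 stromal markers 6.13 to 6.55 on naive and 5.54 to 5.90 on GC arrays. Their part in the results was not tested.

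Most of the recombination and Fanconi genes were higher in GC cells than in naive cells. In IgE GC cells 27 of 37 members rose and 1, Atr, fell (limma, adjusted p under 0.05), where 19.3% of the 12098 genes tested rose and 7.40% fell. In GFP+ IgG1 GC cells 23 rose and none fell (16.8% and 6.43% of all genes), and in GFP- IgG1 GC cells 27 rose and none fell (20.5% and 9.35%, or 29.8% in either direction). The median log2 difference of the members was 1.19, 0.96 and 1.13 in the same order, against 0.06, 0.02 and 0.07 for all genes tested. These comparisons share the naive arrays, and the gene lists were chosen with earlier results of these data known. Without both arrays that stood apart the calls numbered 25, 23 and 24. Every member named at the start as below the array median on all naive arrays is among those that rose in IgE GC cells. The naive and GC arrays differed also in cycling markers, and 37, 35 and 37 of 38 DNA replication genes rose, with medians of 2.47, 2.27 and 2.34. Of 14 end joining genes tested, 6, 8 and 10 rose, with medians of 0.67, 0.91 and 0.92. How far the members followed cell division was not tested. The arrays read RNA of whole pools, so that more cells with a transcript and more RNA per cell cannot be told apart.

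**Figure D1:**
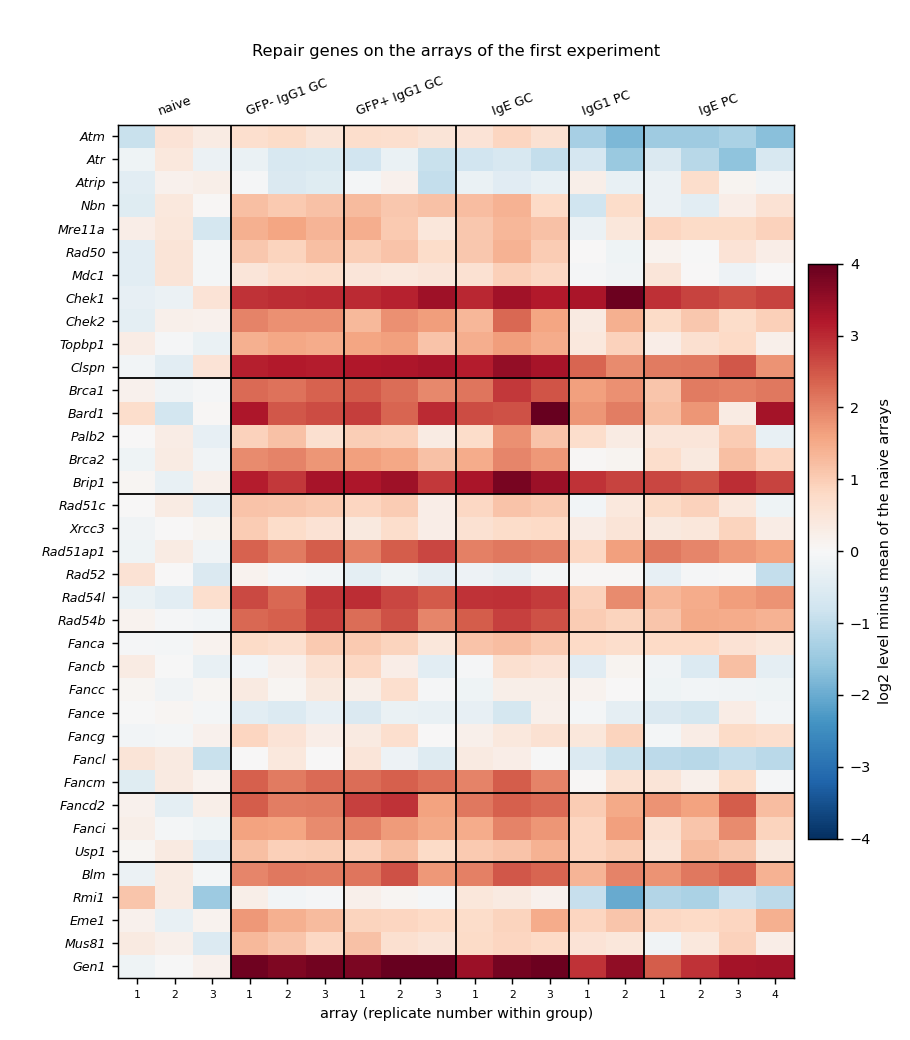
Log2 level of the 37 measured members (lines of the grid, grouped by role) on the 18 arrays of the first experiment (columns, grouped by cell population), shown as the difference from the mean of the 3 naive arrays. Gen1, Brip1, Clspn and Chek1 are among the darkest red on GC arrays, and Atm, Fancl and Rmi1 turn blue on PC arrays.

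PC of both isotypes lay between GC and naive cells for many members and below naive cells for a few. Against IgE GC cells, 17 of 37 members were lower in IgE PC and none higher (13.4% of all genes tested lower, 10.2% higher), with a median of -0.61 against -0.03 for all genes. Against GFP+ IgG1 GC cells, 12 members were lower in IgG1 PC and none higher (13.1% and 8.32% of all genes), with a median of -0.56 against -0.01. The highest values were 0.45 for Atrip in IgE and 0.44 for Chek1 in IgG1 cells, both uncalled. The members lower in both were Atm, Brca2, Clspn, Fancm, Nbn, Rad50, Rad54b, Rad54l, Rmi1 and Topbp1. Of these, Atm, Brca2, Fancm, Rad50 and Rad54b kept both calls whichever single array was left out. The share of all genes lower in both was not counted. The count of members lower in PC rested in part on single arrays. It was 9 without IgE GC replicate 2 in IgE PC, and 7 without IgG1 PC replicate 1 in IgG1 PC. Without both arrays that stood apart, the count in IgG1 PC was 13. DNA replication genes moved too, 18 of 38 being lower in IgE PC (1 higher) and 13 in IgG1 PC, with medians of -0.76 and -0.52. Of the 3 cycling markers, 2 fell in IgE PC and none in IgG1 PC, with Mki67 at -0.37 in IgE PC (adjusted p = 0.0266) and -0.20 in IgG1 PC (adjusted p = 0.358).

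Against naive cells, 19 members were still higher in IgE PC and 4 were lower (23.0% and 14.1% of all genes tested). In IgG1 PC 17 were higher and 3 lower (17.1% and 12.2%). The median differences were 0.51 and 0.52, against -0.01 and 0.01 for all genes. Without both arrays that stood apart the calls numbered 21 and 18. With only the IgG1 PC and naive arrays in the fit, 9 members were higher and none lower in IgG1 PC, and without IgG1 PC replicate 2 there were 10 calls in all. Of the DNA replication genes, 33 were higher and 2 lower in IgE PC, and 30 higher and 2 lower in IgG1 PC. In the IgE series of comparisons, 9 members rose in GC cells, were lower in PC and stayed above naive cells. A further 5 (Fancm, Mdc1, Nbn, Rad50, Topbp1) rose, were lower in PC and did not differ from naive cells by the test, and 10 rose with no called change in PC against GC cells and were above naive cells. Atm, Fancl and Rmi1 did not pass the test in IgE GC cells and were lower in IgE PC than in both other populations. Atrip, Fancb, Fancc, Fance, Fancg and Rad52 passed no test in the IgE comparisons. The share of all genes with each of these joint patterns was not counted.

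**Figure D2:**
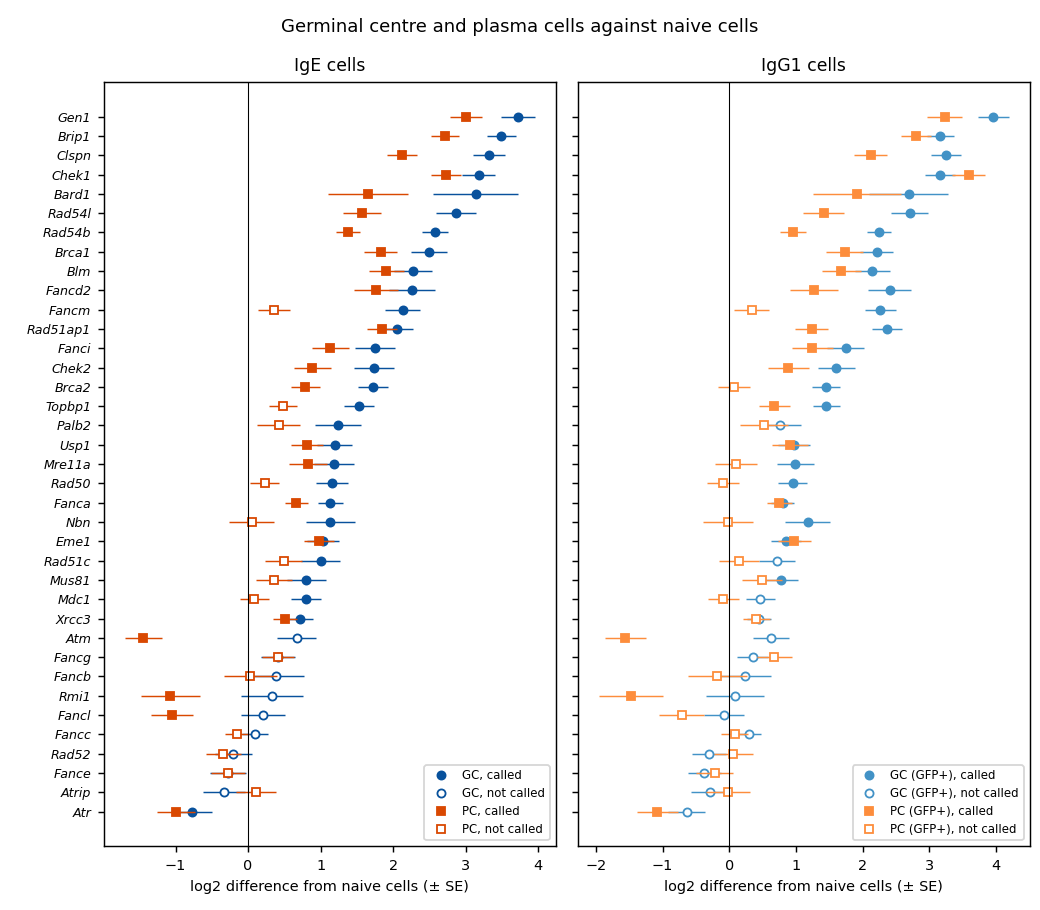
Log2 difference from naive cells with its standard error for each member, for GC cells (circles) and PC (squares), IgE cells on the left and GFP+ IgG1 cells on the right. Filled symbols passed the test at an adjusted p under 0.05. Gen1 lies farthest right in GC cells (3.72 and 3.96), and Atm lies to the right of 0 in GC cells and at -1.45 and -1.56 in PC.

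Among the 11 genes of break sensing and checkpoint signalling, 8 rose in IgE GC cells and 7 were lower in IgE PC than in IgE GC cells. Neither of the kinases at the top of this signalling, Atm and Atr, rose in any GC group. Atm, the kinase that answers double-strand breaks, was at 6.39, 7.83 and 7.62 on the naive arrays, at 7.82, 8.13 and 7.89 on the IgE GC arrays and at 7.99, 7.95 and 7.79 on the GFP+ IgG1 GC arrays. On the 4 IgE PC arrays it was at 5.86, 5.85, 6.01 and 5.61, and on the 2 IgG1 PC arrays at 5.95 and 5.49. Every PC array lay below every naive and every GC array. The difference of PC from GC cells was -2.12 (SE 0.26, adjusted p = 8.65e-06) in IgE and -2.19 (SE 0.31, adjusted p = 5.41e-05) in IgG1 cells, a 4.33-fold and a 4.55-fold lower signal. The difference of GC from naive cells was 0.67 (adjusted p = 0.0809) and 0.63 (adjusted p = 0.11) and was not called. Naive replicate 1 held the lowest Atm value of the naive arrays, and the PC differences stayed called whichever single array was left out.

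Atr, the kinase of stalled forks, was at 7.22, 7.79 and 7.14 on the naive arrays and at 6.64, 6.75 and 6.45 on the IgE GC arrays, all of which lay below all naive arrays. On the IgE PC arrays it was at 6.80, 6.27, 5.78 and 6.73, and on the IgG1 PC arrays at 6.72 and 5.90. The Atr difference from naive cells was -0.78 in IgE GC cells (SE 0.28, adjusted p = 0.049), -0.99 in IgE PC (adjusted p = 0.00649) and -1.08 in IgG1 PC (adjusted p = 0.0145, and not called without IgG1 PC replicate 2 or naive replicate 2). The GC call sat at the threshold and was lost without any of 5 of the 6 arrays compared, naive replicate 3 being the exception, with only the groups compared in the model, without the filter on dim genes, with robust variance moderation and without both arrays that stood apart. In GFP+ IgG1 GC cells the difference was -0.64 (adjusted p = 0.112), and in GFP- IgG1 GC cells -0.50 (adjusted p = 0.176). A further quantile normalization turned both into calls of a lower level. Atrip, its binding partner, differed from naive cells by -0.33 in IgE GC cells and 0.11 in IgE PC, both uncalled.

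Chek1 and Clspn, both below the array median in naive cells, had the largest fitted differences of this group. Chek1, the checkpoint kinase activated by ATR, was at 4.13, 4.24 and 5.01 on the naive arrays and at 7.47, 7.83 and 7.62 on the IgE GC arrays, a difference of 3.18 (SE 0.22, adjusted p = 1.78e-08). It stayed at 7.05 to 7.38 on the IgE PC arrays and at 7.72 and 8.38 on the IgG1 PC arrays, all above all naive arrays. Clspn, which holds CHK1 to ATR, was at 4.69, 4.39 and 5.35 on naive arrays, 7.94, 8.33 and 8.11 on IgE GC arrays and 8.01, 8.06 and 8.11 on GFP+ IgG1 GC arrays. On PC arrays Clspn was at 6.90, 6.93, 7.29 and 6.59 (IgE) and at 7.15 and 6.71 (IgG1), between the other populations without overlap. Its differences were 3.32 in IgE GC cells against naive cells (SE 0.22) and -1.20 in IgE PC against IgE GC cells (SE 0.21, adjusted p = 0.000344). Topbp1, the ATR activator, went from 7.76 to 8.32 on naive arrays to 9.48 to 9.69 on IgE GC arrays and was at 8.22 to 8.83 on IgE PC arrays. Chek2, the checkpoint kinase under ATM, rose by 1.74 in IgE GC cells (SE 0.27) and was lower in IgE PC than there (-0.85, adjusted p = 0.0222, not called without IgE GC replicate 2 or IgE PC replicate 1 or 3).

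All 3 genes of the MRE11-RAD50-NBN complex rose in each GC group, and Rad50 was lower in PC of both isotypes. Rad50, the subunit that tethers DNA ends, was at 7.06, 7.97 and 7.38 on naive arrays, 8.56, 8.85 and 8.47 on IgE GC arrays, 7.60, 7.44, 8.01 and 7.74 on IgE PC arrays and 7.47 and 7.28 on IgG1 PC arrays. GC arrays lay above the others and PC arrays overlapped naive ones, with differences of 1.16 for GC against naive cells (adjusted p = 0.000764) and -0.93 for IgE PC against IgE GC cells (adjusted p = 0.00245). Nbn, the subunit that recruits ATM, was at 5.52, 6.43 and 6.07 on naive arrays, 7.23, 7.39 and 6.80 on IgE GC arrays and 5.78, 5.58, 6.29 and 6.57 on IgE PC arrays, with differences of 1.13 (adjusted p = 0.0195) and -1.08 (adjusted p = 0.0178). The IgG1 PC arrays read 5.21 and 6.76 for Nbn, the widest gap between those arrays of any member. A further probe set of Nbn gave 0.43 and -0.19 for the same differences. For IgG1 PC against GFP+ IgG1 GC cells the chosen probe set gave -1.20 and the further one 0.16, so that both the size and, in IgG1 cells, the direction of the Nbn change depended on the probe set. The rise of Nbn in IgE GC cells was lost without naive replicate 1 or IgE GC replicate 1 or 2. Its lower level in IgE PC was lost without IgE GC replicate 1 or 2 or IgE PC replicate 1 or 2, and in IgG1 PC it was lost without any single array but IgG1 PC replicate 2, with the mean of both probe sets, after a further quantile normalization and with only the groups compared in the model. In GFP+ and GFP- IgG1 GC cells the rise of Nbn was lost without both arrays that stood apart. In GFP+ IgG1 GC cells the Rad50 and Mre11a calls were lost with only the groups compared in the model, and that of Mre11a also without GFP+ IgG1 GC replicate 1 or 2 or naive replicate 3. Mre11a, the nuclease subunit, rose by 1.19 in IgE GC cells (adjusted p = 0.00444) and was at 7.59 to 7.74 on IgE PC arrays against 7.90 to 8.15 on IgE GC arrays, which did not overlap but were not called (-0.36, adjusted p = 0.393). Mdc1, a scaffold at broken chromatin, rose by 0.80 in IgE GC cells and was lower in IgE PC (-0.71, adjusted p = 0.0141), with the rise not called without naive replicate 1 and the lower level not called without IgE GC replicate 2.

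**Figure D3:**
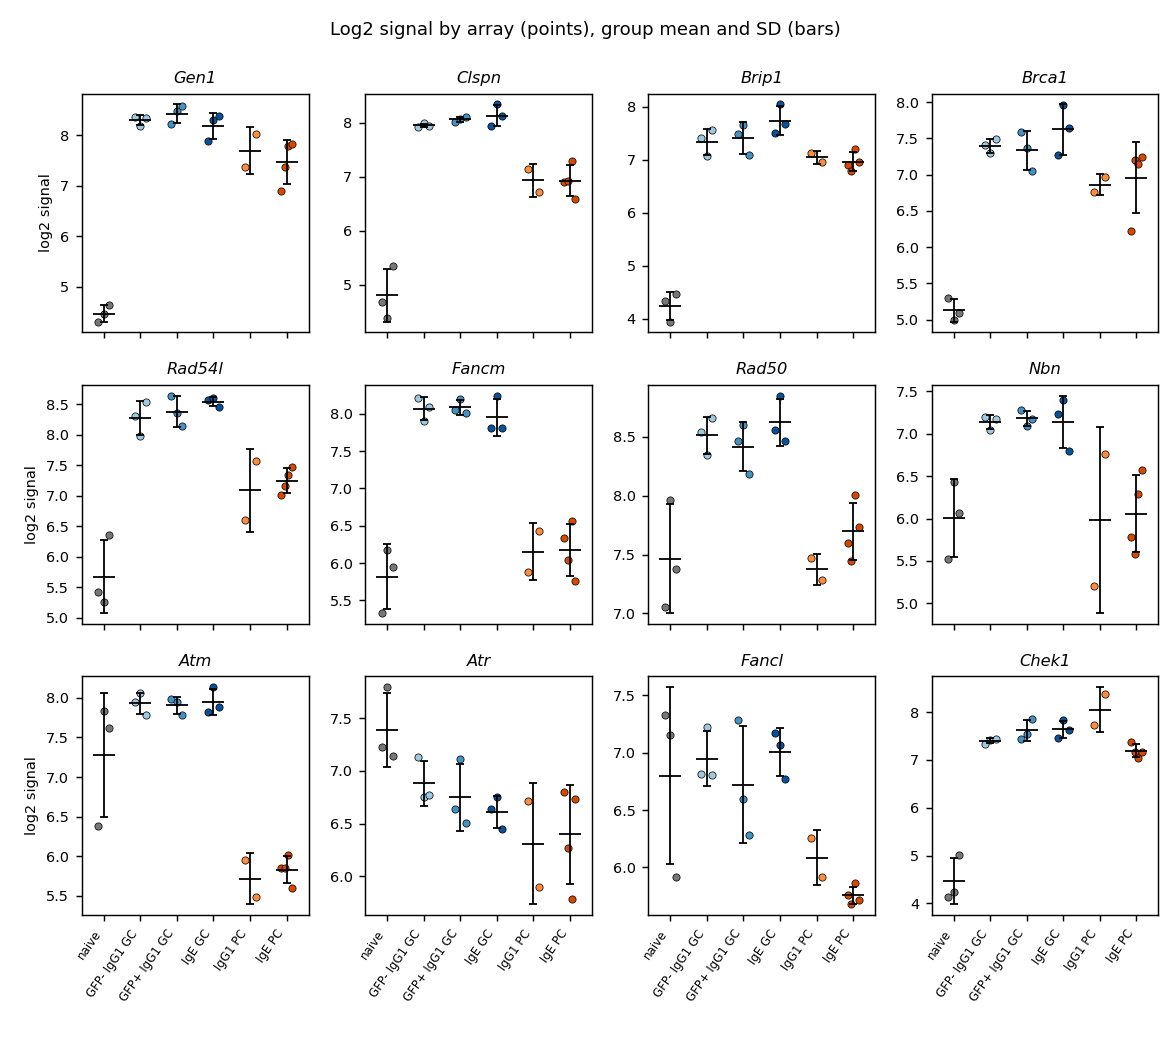
Log2 signal of 12 members on each array of the first experiment (points) with group mean and SD (bars), one panel per gene with its own axis. Gen1, Clspn, Brip1 and Chek1 sit near 4 to 5 in naive cells and near 7 to 8 in the other groups, whereas Atm is lowest in both PC groups.

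All 5 measured genes of end resection and the BRCA complexes rose in IgE GC cells and in GFP- IgG1 GC cells, with medians of 2.50 and 2.27, and 4 of 5 rose in GFP+ IgG1 GC cells. Brip1, a helicase that binds BRCA1, was at 4.33, 3.95 and 4.46 on naive arrays and 7.50, 8.05 and 7.67 on IgE GC arrays, a fitted difference of 3.49 from a level below the array median (SE 0.20, adjusted p = 2.06e-09). IgE PC arrays held 6.91, 6.79, 7.21 and 6.96 of Brip1, below all IgE GC arrays (-0.77, adjusted p = 0.00612, not called without IgE GC replicate 2) and 2.72 above naive cells. In IgG1 PC Brip1 was at 7.14 and 6.96, a difference of -0.36 from GFP+ IgG1 GC cells that was not called (adjusted p = 0.296). Brca1, the ubiquitin ligase subunit that directs resection, was at 5.29, 4.99 and 5.09 on naive arrays and 7.27, 7.95 and 7.64 on IgE GC arrays (2.50, SE 0.25). On IgE PC arrays Brca1 was at 6.22, 7.20, 7.15 and 7.24, where replicate 1 stood alone, and the lower level than in GC cells (-0.67, adjusted p = 0.0462) was not called without that array or without IgE GC replicate 2 or 3.

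Bard1, the partner of BRCA1, was the most scattered member. It was at 5.80, 4.37 and 5.14 on naive arrays, 7.72, 7.66 and 9.34 on IgE GC arrays and 6.31, 6.87, 5.43 and 8.43 on IgE PC arrays. The rise in IgE GC cells was called (3.14, SE 0.59, adjusted p = 0.000802) and the difference of PC from GC cells was not (-1.48, SE 0.55, adjusted p = 0.0635). With the mean of its 3 probe sets in place of the brightest, the latter was -1.22 and called (adjusted p = 0.00339). Brca2, a central mediator of strand exchange, was at 5.02, 5.54 and 5.05 on naive arrays, 6.68, 7.15 and 6.95 on IgE GC arrays and 6.86, 6.74 and 6.39 on GFP+ IgG1 GC arrays. Brca2 on PC arrays was at 5.90, 5.60, 6.41 and 6.06 (IgE) and 5.24 and 5.31 (IgG1). IgE PC lay above all naive arrays (0.79, adjusted p = 0.00443), and IgG1 PC lay within the naive range (0.07, adjusted p = 0.866). Palb2, the bridge between BRCA1 and BRCA2, was dim, above the array median on 7 of 18 arrays, and rose by 1.24 in IgE GC cells (adjusted p = 0.00834), a call lost without IgE GC replicate 2. Its rise of 0.93 in GFP- IgG1 GC cells was lost without GFP- IgG1 GC replicate 1 or 2, without naive replicate 1 or 3, and without both arrays that stood apart.

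Of the 6 measured strand exchange genes, 5 rose in IgE GC cells and 5 in GFP- IgG1 GC cells, Rad52 being the exception in both, and 3 rose in GFP+ IgG1 GC cells, where Rad51c, Xrcc3 and Rad52 were not called. Rad54l, a motor protein of strand exchange on chromatin, was at 5.42, 5.25 and 6.35 on naive arrays, 8.57, 8.60 and 8.46 on IgE GC arrays and 7.01, 7.16, 7.33 and 7.48 on IgE PC arrays. The populations did not overlap, with differences of 2.87 (SE 0.28) and -1.29 (SE 0.26, adjusted p = 0.00126). In IgG1 cells Rad54l was at 8.63, 8.36 and 8.14 in GC and 6.60 and 7.57 in PC. Its relative Rad54b was at 4.63 to 4.88 on naive arrays, 7.16 to 7.47 on IgE GC arrays, 5.85 to 6.24 on IgE PC arrays and 5.63 to 5.74 on IgG1 PC arrays, again without overlap. Rad54b differed by 2.58 (SE 0.18) between IgE GC and naive cells and by -1.20 and -1.29 between PC and GC cells of the IgE and IgG1 isotype.

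Rad51ap1, which stimulates strand invasion, was at 5.07, 5.55 and 5.10 on naive arrays, 7.26, 7.36 and 7.28 on IgE GC arrays and 7.34, 7.18, 6.98 and 6.83 on IgE PC arrays. IgE PC overlapped IgE GC arrays (-0.21, adjusted p = 0.552). In IgG1 cells GC arrays read 7.26, 7.66 and 7.90 and PC arrays 6.07 and 6.88, which did not overlap (-1.13, adjusted p = 0.00316, not called without IgG1 PC replicate 1). Rad51c and Xrcc3, which form a complex in strand exchange, rose by 1.00 and 0.72 in IgE GC cells (adjusted p = 0.0109 and adjusted p = 0.00732), and the Rad51c call was lost without naive replicate 3. In GFP+ IgG1 GC cells they differed by 0.71 and 0.45 from naive cells and were not called. Rad52, which anneals single strands, was at 6.68 to 7.83 on naive arrays and 6.95 to 7.17 on IgE GC arrays, which lay inside that range.

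In the Fanconi core complex, Fancm and Fanca rose and the other subunits passed no test in GC cells. Of the 7 measured genes, 2 rose in each GC group, with medians of 0.38, 0.29 and 0.28. Among all genes tested 19.3%, 16.8% and 20.5% rose, and whether the count of 2 exceeds such shares was not tested. In GFP+ IgG1 GC cells the Fanca call was lost with only the groups compared in the model. Fancm, the translocase that brings the complex to DNA, was at 5.33, 6.18 and 5.94 on naive arrays, 7.81, 8.24 and 7.81 on IgE GC arrays and 8.04, 8.20 and 8.01 on GFP+ IgG1 GC arrays. It was back at 6.33, 6.03, 6.56 and 5.76 on IgE PC arrays and at 5.88 and 6.42 on IgG1 PC arrays, overlapping naive arrays and far from GC arrays. Fancm rose by 2.13 (SE 0.24, adjusted p = 4.99e-06) in IgE GC cells, and PC differed from GC cells by -1.78 (SE 0.22, adjusted p = 1.37e-05) in IgE and -1.93 (SE 0.27, adjusted p = 4.91e-05) in IgG1 cells. Against naive cells PC differed by 0.35 and 0.33, both uncalled. Fanca, a scaffold of the complex, rose by 1.13 in IgE GC cells (adjusted p = 0.000117) and by 0.66 and 0.75 in IgE and IgG1 PC against naive cells.

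Fancl, the subunit that attaches ubiquitin, was at 7.33, 7.16 and 5.92 on naive arrays and 7.17, 7.07 and 6.77 on IgE GC arrays, which overlapped. On IgE PC arrays it was at 5.76, 5.68, 5.86 and 5.72, below every GC and every naive array. IgE PC differed by -1.25 from IgE GC cells (SE 0.29, adjusted p = 0.00358) and by -1.05 from naive cells (adjusted p = 0.0084, and not called without naive replicate 1). IgG1 PC, at 6.26 and 5.92, differed by -0.64 from GFP+ IgG1 GC cells and were not called (adjusted p = 0.217). The isotypes were not shown to differ in that change (difference of differences -0.61, SE 0.45, adjusted p = 0.899). Fancb, Fancc, Fance and Fancg, further core subunits, differed from naive cells by 0.38, 0.10, -0.27 and 0.41 in IgE GC cells, with adjusted p from 0.206 to 0.696.

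The targets of that complex rose in every GC group. Fancd2 was at 4.62, 4.03 and 4.66 on naive arrays, 6.55, 6.84 and 6.70 on IgE GC arrays and 6.23, 6.04, 6.84 and 5.67 on IgE PC arrays, a rise of 2.26 in GC cells (SE 0.32, adjusted p = 5.68e-05). Its partner Fanci rose by 1.75 (SE 0.28) and Usp1, which removes their ubiquitin, by 1.19 (SE 0.24). In IgE PC none of the 3 was called lower than in GC cells (-0.50, -0.61 and -0.38), and all 3 remained above naive cells by 1.76, 1.13 and 0.81, the call for Usp1 being lost without naive replicate 3. In IgG1 PC Fancd2 was at 5.46 and 5.95, lower than in GFP+ IgG1 GC cells (-1.14, adjusted p = 0.0303), a call lost without IgG1 PC replicate 1 and without GFP+ IgG1 GC replicate 1 or 2.

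Of the 5 genes that process joined molecules, 4 rose in each GC group and Rmi1 did not. Gen1, a nuclease that cuts four-way junctions, had the largest fitted difference of any member in all 3 GC groups. It was at 4.31, 4.46 and 4.63 on naive arrays, 7.89, 8.30 and 8.37 on IgE GC arrays, 8.22, 8.47 and 8.58 on GFP+ IgG1 GC arrays and 8.37, 8.19 and 8.34 on GFP- IgG1 GC arrays. The differences were 3.72, 3.96 and 3.83 (SE 0.24 each), fitted against naive levels below the array median, so that no fold is given. PC kept most of it, at 6.90, 7.36, 7.78 and 7.82 (IgE) and 7.37 and 8.02 (IgG1), which was 3.00 and 3.23 above naive cells. The lower level in IgE PC than in GC cells (-0.72, adjusted p = 0.0247) was lost without IgE GC replicate 2 or 3 and without IgE PC replicate 1 or 2.

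Blm, the helicase that unwinds double junctions, rose by 2.27 in IgE GC cells (SE 0.26) and was 1.91 above naive cells in IgE PC. The nuclease pair Mus81 and Eme1 rose by 0.80 (adjusted p = 0.0341) and 1.04 (adjusted p = 0.00223), and the Mus81 call was lost without any of the IgE GC arrays or without naive replicate 3. In GFP+ IgG1 GC cells the Mus81 difference of 0.77 (adjusted p = 0.0466) was not called without GFP+ IgG1 GC replicate 1 or 2 or naive replicate 3, nor under 4 of the other settings, among them no filter on dim genes and the replicate block. Rmi1, which binds BLM, was scattered on naive arrays (9.36, 8.57 and 6.79), close together on IgE GC arrays (8.68, 8.60 and 8.43) and lower on IgE PC arrays (7.06, 6.98, 7.42 and 7.19). IgE PC lay below every IgE GC array (-1.40, SE 0.40, adjusted p = 0.0172, not called without IgE GC replicate 1 or 2), whereas the lower level than in naive cells (-1.07, adjusted p = 0.0469) was lost without any of the 4 IgE PC arrays and without naive replicate 1 or 2. The further probe set of Rmi1 differed by -1.15 between IgE PC and IgE GC cells and by -0.28 between IgE PC and naive cells.

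Whether isotype mattered was asked within GC cells and within PC. Between IgE GC and GFP+ IgG1 GC cells no member was called by limma, 0 had an unadjusted p under 0.05, and 0% of all genes tested were called. The differences ran from -0.31 for Rad51ap1 (SE 0.22) to 0.48 for Palb2 (SE 0.32). Of 37, 29 were above 0, and 26 after a further quantile normalization. Between IgE PC and IgG1 PC no member was called either (0.785% of all genes higher, 0.174% lower), 5 had an unadjusted p under 0.05, and the smallest adjusted p was 0.0939. That was Chek1, at 7.38, 7.16, 7.05 and 7.17 on IgE PC arrays and 7.72 and 8.38 on IgG1 PC arrays, which did not overlap (-0.86, SE 0.24). Arrays of IgE and IgG1 PC did not overlap for 3 members higher and 4 lower in IgE PC. The same held for 12.4% and 9.89% of all genes tested. Without IgG1 PC replicate 1 the Chek1 difference was -1.19 and called (adjusted p = 0.0408). Brca2 (0.72, SE 0.22), Mre11a (0.72, SE 0.30) and Rad51ap1 (0.61, SE 0.24) were higher in the IgE than in the IgG1 PC mean, with adjusted p of 0.156, 0.301 and 0.269. The change from GC cells to PC was not called different between isotypes for any member (0.0661% of all genes called higher, 0.0909% in either direction), 2 had an unadjusted p under 0.05, and the smallest adjusted p was 0.533 (Rad51ap1, 0.92, SE 0.32). With 2 IgG1 PC arrays these intervals are wide, and the values do not show that the isotypes are alike.

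**Figure D4:**
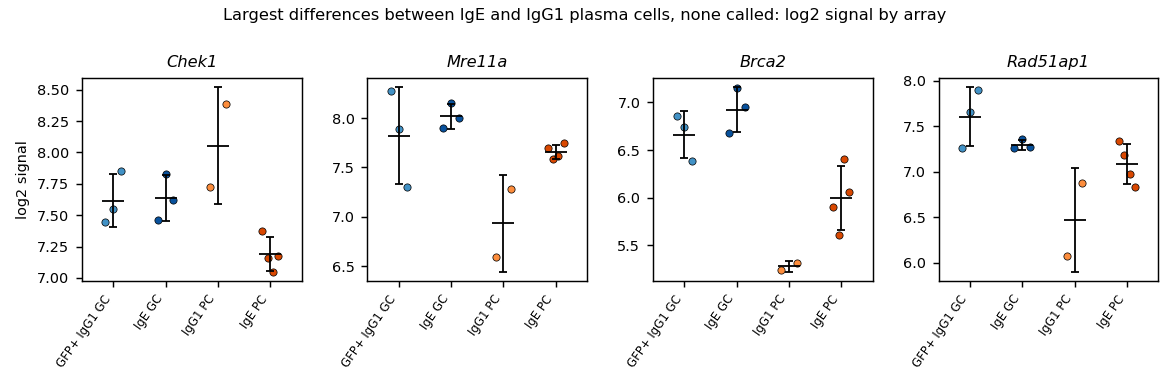
Log2 signal of Chek1, Mre11a, Brca2 and Rad51ap1 on each array of GFP+ IgG1 GC, IgE GC, IgG1 PC and IgE PC (points) with group mean and SD (bars), each panel on its own axis. The IgG1 PC arrays sit above the IgE PC arrays for Chek1 and below them for Mre11a and Brca2, and no difference passed the test.

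GFP marks IgG1 cells that also rearranged the epsilon locus. Between GFP+ and GFP- IgG1 GC cells no member was called (0% of all genes), and 1, Eme1, had an unadjusted p under 0.05. Eme1 was at 6.36, 6.32 and 6.24 on GFP+ arrays and 7.21, 6.88 and 6.72 on GFP- arrays, which did not overlap (-0.63, SE 0.22). In the second experiment Eme1 did not repeat that direction, with GFP+ minus GFP- at 0.26 (SE 0.17) over both zones. No member was called between GFP+ and GFP- cells over the zones (0% of all genes, 2 members with an unadjusted p under 0.05), where Mus81 was lowest at -0.40 (SE 0.16), Rad51ap1 at -0.37 (SE 0.12) and Fancg highest at 0.30 (SE 0.14). For Rad51ap1 the same difference in the first experiment was 0.08.

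Between dark zone and light zone cells, 3 of 37 members were called, Gen1, Fancd2 and Usp1, all higher in the DZ. None was called lower, where 3.92% of the 11050 genes tested were higher and 3.00% lower, and 9 members had an unadjusted p under 0.05. The differences of 24 of 37 members were above 0, most of them uncalled, with a median of 0.16 (0.00 for all genes). Gen1 was at 8.12, 8.41 and 8.40 (GFP-) and 8.42, 7.82 and 8.22 (GFP+) in the DZ and at 7.86, 7.69 and 7.79 (GFP-) and 7.88, 7.73 and 7.70 (GFP+) in the LZ, with 1 DZ array inside the LZ range (0.46, SE 0.11, adjusted p = 0.0326). Fancd2 was at 6.84, 6.54 and 7.02 and 7.07, 6.59 and 6.61 in the DZ against 6.41, 6.07 and 6.14 and 6.39, 6.42 and 6.52 in the LZ, with no overlap (0.45, SE 0.12, adjusted p = 0.0438). Usp1 ranged from 8.11 to 8.56 in the DZ (median 8.33) and from 7.69 to 8.17 in the LZ (median 7.90), a difference of 0.43 (SE 0.10, adjusted p = 0.0243). Brca1 (0.41, adjusted p = 0.0693) and Eme1 (0.51, adjusted p = 0.102) were not called, and Mus81 had the lowest value (-0.39, adjusted p = 0.168).

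Both light zone markers, Cd86 and Cd83, were lower in the DZ by the test (median -1.09), and Cxcr4, the dark zone marker, was 0.31 higher without a call. The zones were sorted by CD86 and CXCR4, so these genes are no independent check. The calls rested on few arrays. No member was called without GFP+ DZ replicate 1 or 3, GFP- DZ replicate 3 or GFP+ LZ replicate 2. Without GFP+ LZ replicate 3 or without any of the GFP- LZ arrays, 1 was called, and without GFP+ DZ replicate 2 there were 5. The cycling markers averaged 10.49 and 10.55 in GFP+ and GFP- DZ cells and 10.03 and 9.84 in LZ cells, and Mki67 was higher by 0.63 in the DZ (adjusted p = 0.00197). DNA replication genes had 4 of 38 called higher and a median of 0.27. The part of cell division in the zone values was not tested. The zone difference was not called different between GFP+ and GFP- cells for any member (0% of all genes, 0 members with an unadjusted p under 0.05). The values ran from -0.70 for Eme1 (SE 0.35) to 0.95 for Bard1 (SE 0.64). Of 37, 30 were below 0, with a median of -0.15 against -0.04 for all genes. Members above 0 numbered 7, and 11 after a further quantile normalization.

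**Figure D5:**
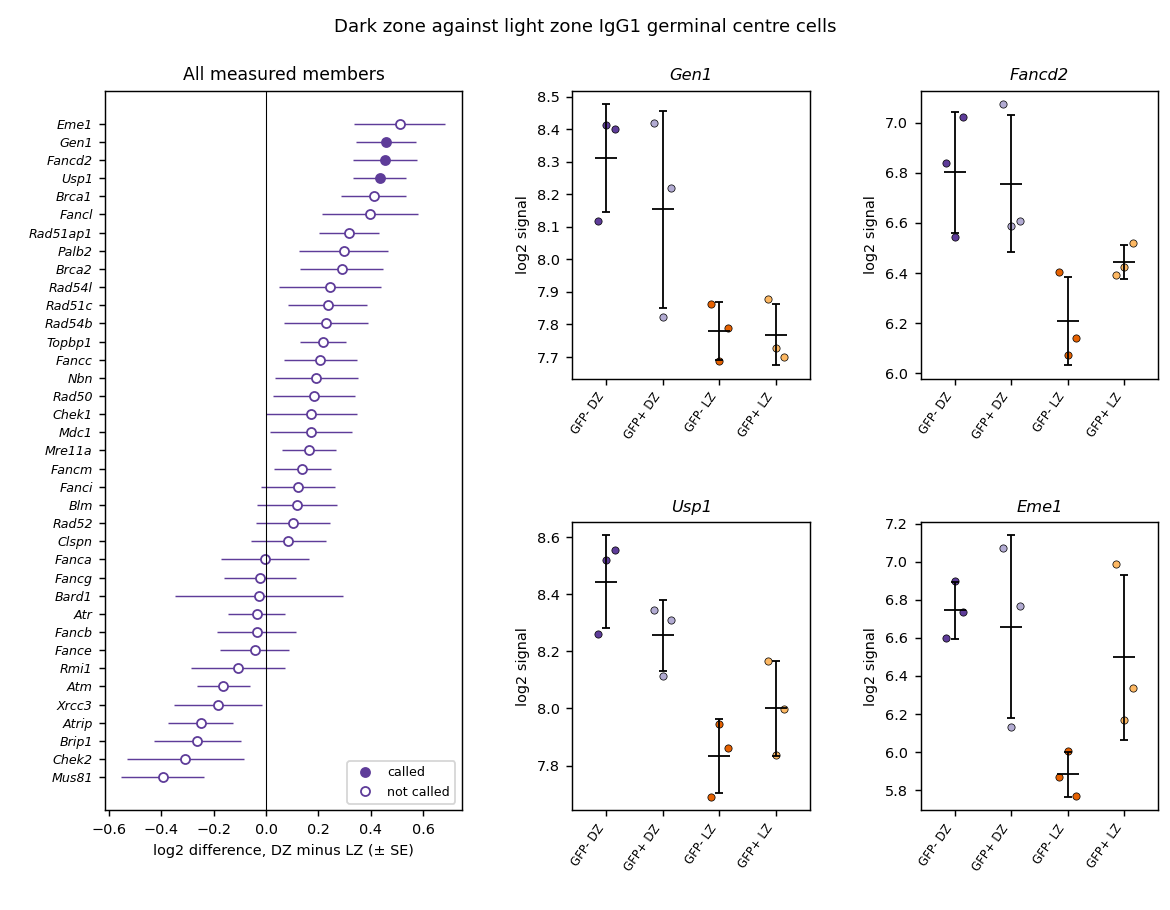
Left, log2 difference of DZ from LZ cells with its standard error for all 37 members, filled where called. Right, log2 signal of Gen1, Fancd2, Usp1 and Eme1 on each array by zone and GFP (points) with group mean and SD (bars), each panel on its own axis, where the called members differ by 0.43 to 0.46 and Eme1 by 0.51 with a wider spread.

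A wider list held 50 pathway genes, of which 43 were measured and 41 tested. In IgE, GFP+ IgG1 and GFP- IgG1 GC cells 22, 23 and 24 of the 41 rose against naive cells and none fell, where 19.3%, 16.8% and 20.5% of all genes tested rose. Their medians were 0.79, 0.82 and 0.94. Parpbp, which restrains homologous recombination, was at 3.62, 3.76 and 4.08 on naive arrays and 6.85, 7.49 and 7.63 on IgE GC arrays (3.50, SE 0.23, adjusted p = 1.02e-08). Tipin, a fork protection factor, rose by 3.39, Fignl1, an ATPase of homologous recombination, by 3.21, the resection nucleases Exo1 and Dna2 by 2.77 and 2.42, and the single-strand binding subunits Rpa1, Rpa2 and Rpa3 by 1.60, 1.76 and 1.82. In IgE PC 11 were lower than in IgE GC cells and 1 higher, and in IgG1 PC 12 were lower than in GFP+ IgG1 GC cells and 1 higher, where 13.4% and 13.1% of all genes were lower and 10.2% and 8.32% higher. The helicase gene Wrn was the higher one in both, at 7.27, 7.13 and 6.87 on IgE GC arrays and 8.14, 8.21, 8.18 and 8.69 on IgE PC arrays (1.22, SE 0.20, adjusted p = 0.000229), with no overlap, and 1.14 in IgG1 cells (adjusted p = 0.00241). Its relative Recql5 was lower by the test in both (-1.57 and -1.16).

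Wdr48, the cofactor of USP1, was the 1 gene of that list called between IgE and IgG1 PC, where 0.959% of all genes were called. It was at 8.19, 7.94, 7.94 and 8.16 on IgE PC arrays and 7.23 and 7.25 on IgG1 PC arrays (0.82, SE 0.17, adjusted p = 0.0248). The arrays did not overlap, but the call was lost without either IgG1 PC array and without IgE PC replicate 1 or 4, with values from 0.78 to 0.86. Usp1 itself differed by -0.10 there (adjusted p = 0.916). Between the zones Parpbp was the 1 gene of the list called, where 6.91% of all genes were, at 6.70 to 7.51 in the DZ and 5.13 to 6.41 in the LZ (1.32, SE 0.21, adjusted p = 0.00224), with no overlap and a larger difference than that of any member. The Wrn, Recql5 and Parpbp calls given with values were kept whichever single array was left out.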

How the data were processed

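The authors deposited log2 signals made by RMA, which subtracts background, quantile-normalizes arrays and summarizes probes; the submitters' processing notes name RMA and R 2.15.2. The labels' protocols state that 2 ng of RNA was amplified before 5 ug of cDNA was labelled. Such normalization hides changes in total RNA per cell. No source used here says whether the experiments were normalized together, so they were fitted apart, and no level was compared across them. Hybridisation batches are likewise not stated.

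Of 34760 probe sets on 30 arrays, 21640 had 1 gene symbol in the platform annotation, 1321 several and 11799 none. A gene was read by its single-symbol probe set with the highest mean over 30 arrays (3 members had several). Genes above the array median on at least 2 arrays (first experiment) or 3 (second) were tested. Limma 3.58.1 (lmFit, eBayes) in R 4.3.3 was fitted to all arrays of an experiment for 14 comparisons, two-sided. Benjamini-Hochberg adjustment was over all genes tested, with calls at an adjusted p under 0.05. The procedure was tried on simulated data. Of simulated log2 changes of 1, it recovered 57% for IgE GC against naive cells, 49% for IgE PC against IgG1 PC and 84% for DZ against LZ. For changes of 2 the shares were 95%, 87% and 99%. A change of 1 could thus go uncalled. SD is over arrays, and SE is that of the fitted difference. Arrays did not overlap, higher and lower, for 24.9% and 14.1% of all genes in IgE GC against naive cells (28 and 1 members). The shares were 15.2% and 20.2% in IgE PC against IgE GC cells (1 and 19 members). In IgG1 PC against GFP+ IgG1 GC cells they were 20.7% and 25.8% (1 and 18). In GFP+ against GFP- IgG1 GC cells they were 5.96% and 5.69% (2 and 4), and in DZ against LZ cells 2.49% and 2.31% (2 and 0). Figures were drawn with matplotlib 3.10.9.

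The members and all gene lists were chosen with earlier results of these data known. Members were described by role, and genes of the wider list by their calls. Alternatives concerned the arrays fitted, the filter, a further quantile normalization, probe set averaging, variance moderation, a replicate block and left-out arrays. Arrays were taken as paired where 3 same-numbered pairs each deviated together at a correlation above 0.1. Only GFP+ and GFP- IgG1 GC cells passed that cut-off (0.109 to 0.154). Correlations below it were also positive elsewhere, as for GFP+ and GFP- DZ cells (0.083 to 0.097) and for IgE PC and IgE GC cells (0.045 to 0.088). For GFP- IgG1 GC and naive cells they ran from -0.039 to 0.018. The main fits did not use replicate numbers. This pairing comes from the data, not the labels. The number of arrays limits the precision.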

Additional observations from a re-analysis of the deposited data

Results flagged for a closer look

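In the group of 4 IgE PC arrays, 37 members were examined for an array far from the other three by Dixon's test, and 2 were found, where chance gives about 1 in 20. Brca1 was at 6.22 on IgE PC replicate 1, and at 7.15 to 7.24 on the other arrays. Eme1 was at 6.88 on IgE PC replicate 4, and at 6.26 to 6.32 on the other arrays.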

How the results depend on the processing

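Of 153 calls of members over all comparisons, 100 were kept under every alternative and every left-out array, 39 were lost under at least 1 other alternative, 47 were lost without at least 1 array, and 0 reversed. A fit of IgG1 PC and naive arrays alone gave 9 calls in place of 20. Over all genes, fits of only the groups compared gave 1670 calls in place of 3540 for IgG1 PC against naive cells. For IgE GC against naive cells they gave 2037 in place of 3230, and for IgE PC against IgE GC cells 3284 in place of 2860. Without naive replicate 1 the calls over all genes in IgE GC against naive cells numbered 2761, and without naive replicate 2, 4024. Leaving out each array in turn gave 24 to 28 calls for IgE GC against naive cells, 20 to 26 for GFP+ IgG1 GC, 24 to 28 for GFP- IgG1 GC, 9 to 17 for IgE PC against IgE GC, 7 to 13 for IgG1 PC against GFP+ IgG1 GC, 0 to 1 for IgE PC against IgG1 PC, 20 to 23 for IgE PC against naive, 10 to 18 for IgG1 PC against naive and 0 to 5 for DZ against LZ. The remaining comparisons gave 0 throughout. The cause of these losses was not tested, beyond the smaller number of arrays. A further quantile normalization changed the split of all genes for IgE GC against naive cells from 2335 higher and 895 lower to 1836 and 1113 (members 26 higher and 1 lower), and for DZ against LZ cells from 433 and 331 to 356 and 410 (members 2 higher), and for IgE against IgG1 PC from 95 and 21 to 60 and 24 (members 0). With the replicate number as a block, the counts of calls in the comparisons with calls were 27, 23, 26, 17, 16, 23, 20 and 3, in the order just given without IgE PC against IgG1 PC, and the paired comparison of GFP+ with GFP- IgG1 GC cells kept 0 calls. The labels do not say what arrays of the same number share.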
